A study of Mus musculus with 2 samples.

Results

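Pre-mRNA splicing factors and the CLK kinases were compared between 2 arrays of activated mouse T cells, one without and one with triptolide. Genes were taken by symbol: those starting with Srsf, Snrp, Sf3a, Sf3b, U2af, Prpf or Hnrnp, with 1 gene of the Hnrnp prefix set aside, and Clk1, Clk2, Clk3 and Clk4. Probe sets that the platform annotation pairs with exactly 1 such gene gave 176 probe sets of 65 genes, of 45037 probe sets and 18193 genes on the array. A further 4 genes, Hnrnpa3, Snrpa, Snrpd1 and Snrpd2, were represented by probe sets shared with another gene and were left out.

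The cells were mouse primary T cells, purified and kept in medium with serum for 18 h. Both groups received antibodies against CD3 and CD28, which engage the T cell receptor and its costimulatory partner, and the second group also received triptolide at 50 ng/ml. Triptolide is a plant diterpenoid that binds the XPB subunit of the transcription factor TFIIH, whose activity opens promoter DNA for RNA polymerase II. The labels give no strain, sex or age of the mice, no number of animals per sample and no length of the exposure to triptolide, and they name no unstimulated group. Each group was measured on 1 array, so no difference below has a replicate check, an error between cultures or a test.

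Splicing removes introns from nascent transcripts in the spliceosome, which is built from small nuclear RNA particles and protein complexes. The U1 particle marks the 5′ splice site, U2AF and the U2 particle mark the 3′ end of the intron, and the tri-particle of U4, U6 and U5 brings in the catalytic core. SR proteins mostly favour the use of exons, hnRNP proteins often repress it, and CLK kinases phosphorylate SR proteins in the nucleus. In T cells, activation changes the exon use of many genes, of which Cd45 (Ptprc) is the best known.

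Signals are MAS5 intensities as deposited, on a linear scale. The 95th percentile of 87 probe sets of chemosensory receptor genes, not expected in T cells, was 107 without and 118 with triptolide, and 118 served as a floor to which lower signals were raised. Genes count as detected where either array exceeded the floor, and each one is represented by the probe set that was brightest on average over both arrays. Ratios are triptolide over stimulated, and a ratio of at least 2-fold was counted. The median signal over all probe sets was 95.5 without and 87.6 with triptolide, and the median log2 ratio of the 10968 detected genes was -0.16, so ratios are read against that shift. T cell markers were detected for 9 of 9 genes on the array, with a summed signal of 54292 without and 40706 with triptolide. In total RNA of a culture, fewer cells of a type and less RNA per cell cannot be told apart. The T cell markers went both ways, so their sum does not stand for each gene. Their log2 ratios ran from -1.34 (Cd2) and -1.32 (Lat) to 0.18 (Cd3g) and 0.46 (Cd3e), with a median of -0.40. B cell markers (5 of 6 detected, Pax5 at the floor) summed to 1641 and 1428. Myeloid markers (4 of 7 detected, with Itgam, Cd14 and Fcgr3 at the floor) summed to 4963 and 6870, most of it from Ctss. Natural killer cell markers had 1 of 2 detected, with a summed signal of 254 and 210.1, and erythroid markers 0 of 2. The part of these shifts in the results below was not tested.

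Most splicing genes had signals within 2-fold of each other on the 2 arrays, as did most detected genes. These ratios are relative, since both arrays had a trimmed mean of 2000.0 over the 100 probe sets listed first. A fall in RNA shared by all genes could be hidden by such scaling and was not tested. With triptolide, 9 of the 63 detected members were lower by 2-fold or more, which is 14.3% beside 12.5% of all detected genes. At least 2-fold higher was 1 member, which is 1.59% beside 5.63% of all detected genes. Within 2-fold lay 53 of the 63 members, beside 8980 of the 10968 detected genes. The share lower is thus near the background. The median log2 ratio of the members was -0.01 and that of all detected genes -0.16. With both arrays centred on the median of the measured probe sets, 3 members were at least 2-fold lower and 1 higher, against 8.96% and 7.88% of all detected genes. Hnrnpdl, Sf3a1 and Sf3b3 were the 3 lower members, and Hnrnpa2b1 the higher one on its representative probe set, with 1 other probe set of the gene lower. On its better array, every detected member reached 4 times the floor or more, and among all genes that bright the shares were 15.8% lower and 6.86% higher. Srsf12 and Snrpn, the latter encoding an Sm protein typical of neurons, were at the floor on both arrays on their probe sets with 1 gene.

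**Figure D1:**
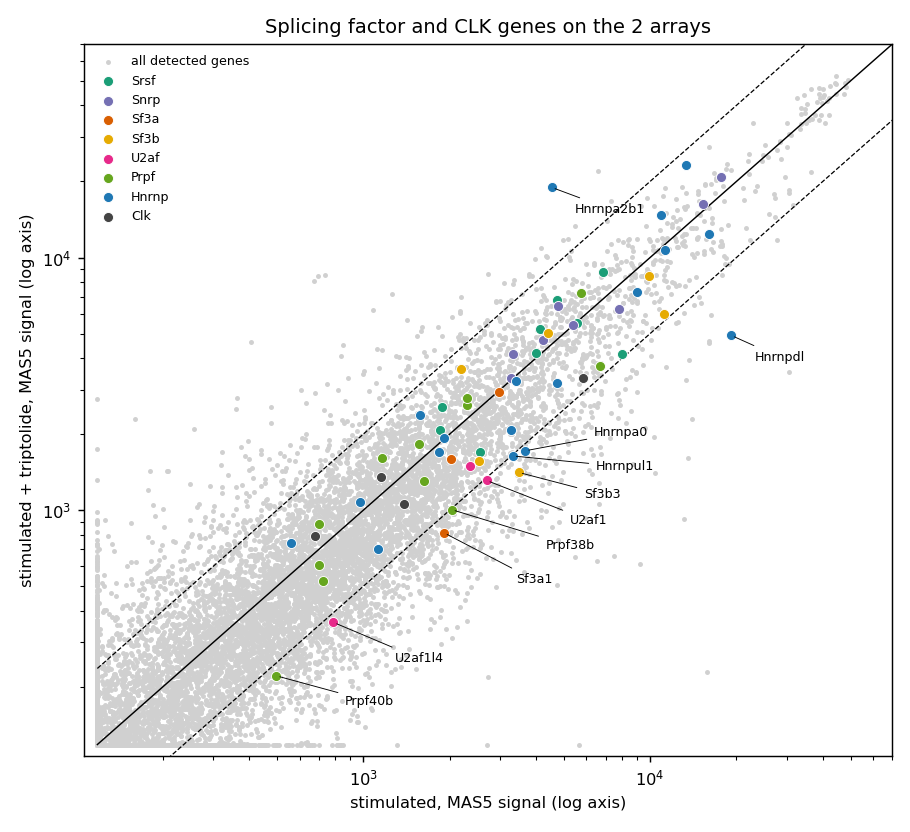
MAS5 signal of each gene without triptolide (horizontal, log axis) and with it (vertical, log axis), with 63 splicing factor and CLK genes coloured by family over 10968 detected genes in grey, signals under 118 drawn at 118. The solid line marks equal signals and the dashed lines 2-fold. The 10 labelled genes lie beyond 2-fold, with Hnrnpa2b1 above the lines and 9 genes below them.

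The families differed in their medians. Sm and other Snrp proteins had a median log2 ratio of 0.12 (8 detected genes, from -0.31 to 0.43) and SR proteins of 0.17 (9 genes, from -0.95 to 0.52), and both medians were below 0, at -0.07 and -0.02, when arrays were scaled on housekeeping genes. Without probe set types shared between transcripts, which leaves 51 members, the median of SR proteins was -0.26, that of Prpf genes -0.25, that of Hnrnp genes -0.20 and that of Sf3a genes -0.79. The last rests on Sf3a1 and Sf3a3 only, since Sf3a2, at -0.01 in the main setting, has only probe sets of those types. Prpf genes had a median of -0.01 (12 genes, from -1.17 to 0.47), CLK kinases of -0.08 (4 genes, from -0.80 to 0.23) and Hnrnp genes of -0.09 (18 genes, from -1.96 to 2.06), and these 3 medians turned to 0.17, 0.10 and 0.09 after centring the arrays. The medians of Sf3a, Sf3b and U2af genes were -0.34, -0.46 and -1.04, over 3, 6 and 3 genes. None of these family differences could be tested with 1 array per group.

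**Figure D2:**
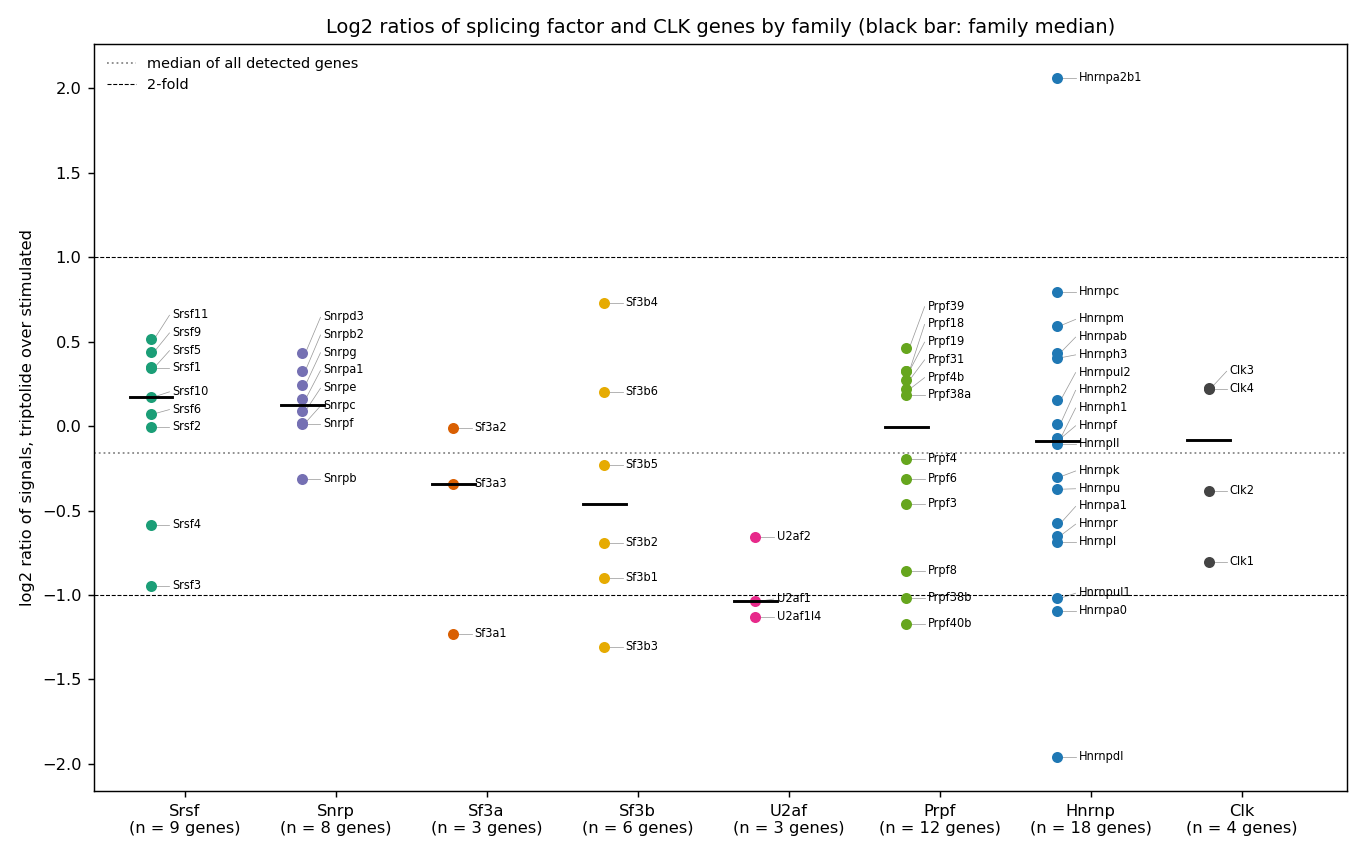
Log2 ratio of the signals, triptolide over stimulated (vertical), of the 63 detected splicing factor and CLK genes, 1 point per gene in 8 families, with the family median as a black bar, 2-fold as dashed lines and the median of all detected genes (-0.16) dotted. Snrp genes lie between -0.31 and 0.43, the 3 U2af genes between -1.13 and -0.66, and Hnrnp genes span -1.96 to 2.06.

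The gene with the lowest ratio was Hnrnpdl, which encodes an hnRNP protein that binds RNA in nucleus and cytoplasm and is known to control the splicing of its own transcript. Its representative probe set went from 19177 to 4922 with triptolide, which is 3.90-fold lower. The next probe sets in brightness went from 7633 to 1209.8, from 4075 to 616 and from 2918 to 707. The 2 dimmer measured ones went from 1947 to 752 and from 1729 to 591. On the last of its 7 probe sets the signal was 299.9 without triptolide and 115 with it, under the floor. All 7 were lower, and the 6 measured on both arrays had log2 ratios between -2.73 and -1.37, so the probe sets differ in size but not in direction.

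Hnrnpa2b1 had the highest ratio and also the widest disagreement among hnRNP genes. It encodes the A2 and B1 proteins, which bind pre-mRNA and travel with mRNA. The representative probe set went from 4541 to 18952, 4.17-fold higher with triptolide. A further pair of probe sets was also higher, from 3348 to 13659 (log2 ratio 2.03) and from 1952 to 4407 (1.17). The 4th probe set went the other way, from 11479.6 to 6067, a log2 ratio of -0.92. The gene is therefore higher on 3 probe sets and lower on 1, and which stretch of the transcript each one reads was not analysed here, so no single direction is given for it.

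Promoters, where TFIIH acts, are shown for 4 genes picked as examples with their values known. Hnrnpdl, Sf3b3 and Srsf3 are among the 15 members lower on all of their 2 or more measured probe sets. Srsf3 was within 2-fold on its representative. Hnrnpa2b1 is the gene whose probe sets disagree most among hnRNP genes. Each line is the 250 bases before the gene's annotated start, 5′ to 3′ on the gene's strand, from RefSeq on GRCm38.p6, with the transcribed bases after the start left out. Capitals mark matches, on either strand, to 4 short motifs, and no matches overlap. The TATA box was searched as TATAAA. The CCAAT box was searched by the letters of its name. The core of the cyclic AMP response element (CRE) was searched as TGACGT. The core bound by ETS factors was searched as CCGGAA. The windows are chr5:100039223-100039472 (minus strand) for Hnrnpdl, chr8:110846804-110847053 (minus) for Sf3b3, chr17:29032410-29032659 (plus) for Srsf3 and chr6:51469895-51470144 (minus) for Hnrnpa2b1, the first of its 2 listed starts.
Hnrnpdl: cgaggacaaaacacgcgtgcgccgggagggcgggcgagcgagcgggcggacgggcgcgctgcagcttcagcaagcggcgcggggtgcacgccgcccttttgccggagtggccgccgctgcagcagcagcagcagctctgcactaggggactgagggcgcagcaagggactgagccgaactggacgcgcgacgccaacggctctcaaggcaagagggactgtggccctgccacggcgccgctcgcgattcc
Sf3b3: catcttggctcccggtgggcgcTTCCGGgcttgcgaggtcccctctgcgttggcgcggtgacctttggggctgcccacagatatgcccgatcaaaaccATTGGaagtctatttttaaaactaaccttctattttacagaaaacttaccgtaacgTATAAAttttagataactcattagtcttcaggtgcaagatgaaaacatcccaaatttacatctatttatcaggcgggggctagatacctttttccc
Srsf3: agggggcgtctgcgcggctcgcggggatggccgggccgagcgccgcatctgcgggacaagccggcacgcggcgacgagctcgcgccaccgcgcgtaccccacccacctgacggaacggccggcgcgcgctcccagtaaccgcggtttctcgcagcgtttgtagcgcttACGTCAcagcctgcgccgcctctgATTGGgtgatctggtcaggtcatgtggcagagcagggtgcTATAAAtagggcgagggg
Hnrnpa2b1: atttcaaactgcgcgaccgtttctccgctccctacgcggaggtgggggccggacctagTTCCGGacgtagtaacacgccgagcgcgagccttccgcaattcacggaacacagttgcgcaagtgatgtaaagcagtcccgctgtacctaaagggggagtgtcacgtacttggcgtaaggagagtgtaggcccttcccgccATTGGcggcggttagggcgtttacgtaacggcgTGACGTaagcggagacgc

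The Hnrnpdl window has 72.0% G or C, 33 CG dinucleotides and none of the 4 motifs. The Srsf3 window has 69.6% G or C and carries the TATA box letters starting 18 bases before the start, with an inverted CCAAT box and an inverted CRE core further up. Sf3b3 has the least G and C of the 4 windows (45.6%), with the TATA box letters starting 96 bases before the start, an inverted CCAAT box and an inverted ETS core. Hnrnpa2b1 has the CRE core starting 18 bases before the start, an inverted CCAAT box and an inverted ETS core. Such windows were listed for 55 of the 63 detected members, 72 in all, some of them overlapping. The ETS core was in 44.4% of them, beside 22.1% of the windows of all detected genes and 12.0% of all 32851 windows. The CRE core was in 16.7% beside 10.1% and 6.47%, the CCAAT box in 50.0% beside 34.9% and 33.8%, and the TATA box in 5.56% beside 6.51% and 12.4%. Of the 11 windows of the 9 members at least 2-fold lower, 2 held the ETS core (18.2%), 8 the CCAAT box (72.7%), 1 the CRE core and 1 the TATA box. Windows are not separate genes here: U2af1 and Prpf40b enter with alternative starts, and all of their windows held the CCAAT box. Of the 61 other windows, from 46 members, 30 held the ETS core (49.2%), 28 the CCAAT box (45.9%), 11 the CRE core and 3 the TATA box. The same split was not made over all detected genes. These shares describe letters in a window, with no test, and not the binding of a factor.

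The other hnRNP genes mostly had closer signals on the arrays without and with triptolide. Hnrnpa0 went from 3674 to 1720.5 (2.14-fold lower) and Hnrnpul1, an hnRNP U-like protein gene, from 3325 to 1641 (2.03-fold lower), each on a single probe set and each inside 2-fold after centring the arrays on the median. Hnrnpl, which represses variable exons of Cd45, went from 1126 to 700.0 (log2 ratio -0.69). Hnrnpll, the activation-induced regulator of the same exons, went from 1834 to 1707 and from 655 to 569 on its probe sets, log2 ratios of -0.10 and -0.20. Hnrnpr was lower on 3 measured probe sets (-0.68 to -0.50) and Hnrnpk on 4 (-0.91 to -0.30). Hnrnpf, which binds runs of G, stayed between -0.07 and 0.10 on 4 probe sets. Hnrnpa1, a repressor of many exons, had log2 ratios of -0.58 and -0.23 on the probe sets assigned to it alone, lower than without triptolide on both. Hnrnpm and Hnrnph3 had ratios of 0.59 and 0.40 on 1 probe set each, and Hnrnph2 of 0.01. Hnrnph1 was at -0.07 (3417 and 3249) and at -0.69 on a dimmer probe set, and Hnrnpul2 at 0.15 and -0.34. As a family, 3 of 18 Hnrnp genes were at least 2-fold lower (16.7%, beside 12.5% of all detected genes). At least 2-fold higher was 1 (5.56%, beside 5.63%), and both shares are near the background. Probe sets shared with other genes are not in this count. Those of Hnrnpa1, brighter than the pair above, were at -2.73, -1.68 and -1.04. Those of Hnrnpa3, which has no others, were at -1.79, -1.54, -1.34 and 0.09.

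Factors that recognise the 3′ end of the intron had the lowest family medians. U2af2, the large subunit that binds the polypyrimidine tract, went from 2361 to 1496 (1.58-fold lower). U2af1, the small subunit that reads the AG at the end of the intron, went from 2695 to 1312 (2.05-fold lower). Its relative U2af1l4 went from 788 to 360.2 (2.19-fold lower). The 3 genes were lower on the 1 probe set assigned to each alone. A dimmer probe set that U2af1l4 shares with Igflr1 went the other way, from 192.8 to 229.8 (log2 ratio 0.25). On the probe sets of their own, U2af1 and U2af1l4 lay inside 2-fold after centring, with log2 ratios between -0.95 and -0.85 for that setting and quantile normalization.

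SF3A and SF3B are the protein complexes of the U2 particle that hold the branch point of the intron. Sf3a1 went from 1912 to 815 (2.35-fold lower), and its dim second measured probe set from 193.0 to 122 (log2 ratio -0.66). Sf3a3 was at -0.34 and -0.13 on its probe sets. Sf3a2 was at -0.01 on its representative (2971 and 2947), while a dim probe set went from 143 to 408 (1.51). The SF3A trimer genes thus differed, with Sf3a1 the lowest.

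Within SF3B the genes split by subunit. Sf3b3, a large scaffold subunit, went from 3491 to 1412 (2.47-fold lower) and on its other probe set from 1404 to 622, log2 ratios of -1.31 and -1.17. Sf3b1, the subunit that encloses the branch point helix and is the target of splicing inhibitors, went from 11209 to 6006 (-0.90), with 3 measured probe sets between -0.90 and -0.69 and a dim one from 326 to 93.3. Sf3b2 was lower on all 6 measured probe sets (-1.11 to -0.61), its representative going from 2538 to 1570.1. Sf3b5 was near its level without triptolide (-0.23 and -0.14). Sf3b6, which contacts the branch point, was slightly higher on 3 probe sets (0.10 to 0.36), and Sf3b4, an RNA-binding partner of Sf3b2, went from 2192 to 3632 (0.73) and from 404 to 443 (0.13). As deposited, the 3 large subunits were lower on every measured probe set, and Sf3b4 and Sf3b6 higher on every one. Scaling on housekeeping genes lowers log2 ratios by 0.19. That is more than the dimmer Sf3b4 value (0.13) and the lowest Sf3b6 value (0.10).

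Taken by role, 4 of the 12 U2af, Sf3a and Sf3b genes were at least 2-fold lower (33.3%, beside 12.5% of all detected genes) and none was higher. Their median log2 ratio was -0.68, and 10 of 12 were below 0, beside 60.2% of all detected genes. Of their 27 measured probe sets, 21 were below 0, beside 60.8% of all detected probe sets with 1 gene, measured on both arrays or not. These probe sets are not independent, since Sf3b2 alone gave 6 of the 21 and Sf3b1 gave 3. With arrays centred on the median, Sf3a1 and Sf3b3 were still at least 2-fold lower and the U2af genes were not. The group follows gene names and does not hold every gene of the role. Outside it, the representatives of Phf5a, Snrpa1 and Snrpb2 were at 0.68, 0.16 and 0.33, and that of Puf60 at -1.48. The genes were grouped with their values known, and the group was not tested.

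The detected Snrp genes with probe sets of their own, by contrast in values, were close to their signals without triptolide. Those left out for shared probe sets are not in this contrast: Snrpa and Snrpd1 were at -0.70 and -0.74, and Snrpd2 at 0.19. Snrpg, Snrpe and Snrpf, members of the Sm ring that forms the core of the particles, went from 17658 to 20892, from 15269 to 16239 and from 5378 to 5432. Snrpd3 had the highest ratio of the family (4786 to 6459, log2 ratio 0.43) and Snrpb the lowest (7811 to 6282, -0.31), with 0.18 on the other Snrpb probe set. Snrpc, a U1 protein, was at 0.02 (3279 and 3323). The U2 proteins Snrpa1 and Snrpb2 were at 0.16 and 0.33 on their representatives, and the other measured Snrpb2 probe set at -0.62. None of the 14 measured Snrp probe sets was beyond 2-fold in either direction, beside 12.8% lower and 5.69% higher among all detected probe sets with 1 gene.

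**Figure D3:**
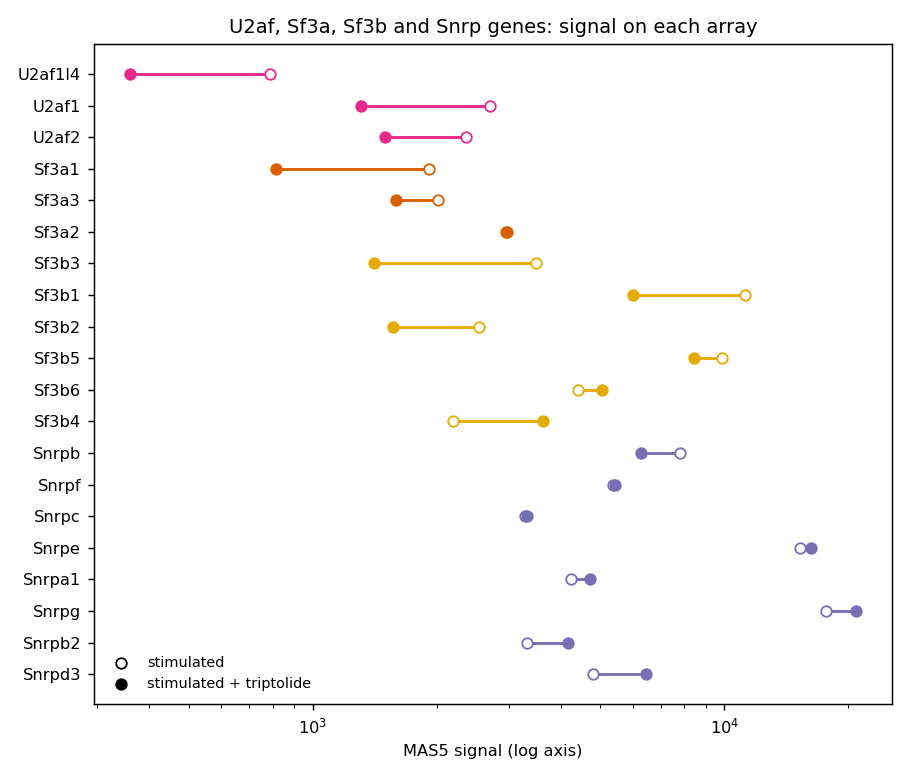
MAS5 signal (horizontal, log axis) of the representative probe set of 12 U2af, Sf3a and Sf3b genes and 8 Snrp genes, with open points for the stimulated array and filled points for the array with triptolide, colours by family. The filled point lies left of the open one for 10 of the 12 U2af, Sf3a and Sf3b genes and for 1 of the 8 Snrp genes, Snrpb. Snrpa, Snrpd1 and Snrpd2, which have only shared probe sets, are not drawn.

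The Prpf genes encode factors of the tri-particle, the Prp19 complex and the U1 particle, and went both ways. Prpf40b, related to a yeast U1 protein, went from 498 to 221 on its single probe set (2.25-fold lower). Prpf38b went from 2034 to 1006 (2.02-fold lower) and on its other measured probe set from 1583 to 390.3 (log2 ratio -2.02). Prpf8, the U5 protein at the heart of the catalytic core, went from 6718 to 3708 (-0.86). The U4 and U6 proteins Prpf3, Prpf4 and Prpf31 were at -0.46, -0.20 and 0.27, and the tri-particle bridge Prpf6 at -0.31. Prpf19, the ubiquitin ligase of the complex named after it, was higher on 4 measured probe sets (0.13 to 0.33), its representative going from 5763 to 7227. Prpf39 had the highest ratio of the family (1164 to 1606, 0.47), and Prpf18, which acts in the later step of splicing, was at 0.33. For Prpf38a the representative was at 0.18 (2305 and 2615), while a probe set under the floor without triptolide (114 to 742) was at least 6.27-fold higher. In all, 2 of 12 were at least 2-fold lower (16.7%, beside 12.5% of all detected genes), and 6 were below 0 (50.0%, beside 60.2%). Both of the lower genes, Prpf40b and Prpf38b, lay inside 2-fold on their representatives after centring, after quantile normalization and with a pseudocount, which leaves 0 of 12.

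Among SR proteins 0 of 9 detected genes were beyond 2-fold as deposited, beside 12.5% lower and 5.63% higher among all detected genes, shares at which 9 genes would hold few or none. Srsf3, the smallest SR protein, which also serves mRNA export, was nearest to it, going from 8011 to 4147 (1.93-fold lower), and passed it with a log2 ratio of -1.14 when arrays were scaled on housekeeping genes. Its other probe sets went from 2086 to 911, from 991 to 537, from 835 to 369, from 626 to 318 and from 331 to 185. The 6 log2 ratios lay between -1.19 and -0.84, the narrowest spread of the members with 6 measured probe sets. Srsf4 was at -0.58 on a single probe set (2551 to 1702).

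The other SR genes were at or above their signals without triptolide on their representatives. Srsf1, a founding SR protein, went from 4120 to 5220 (log2 ratio 0.34), with 5 of 6 measured probe sets above 0 and 1 at -0.76. Srsf5 (6878 to 8748, 0.35), Srsf9 (1883 to 2556, 0.44) and Srsf11 (4736 to 6775, 0.52) were also above 0 as deposited, and Srsf5 and Srsf11 stayed there under each scaling tried. Srsf2 was at -0.01 (5547 and 5519). Srsf6 was at 0.07 (3990 and 4197) on its representative and between 0.50 and 1.11 on the other 3. Srsf10, which turns into a splicing repressor when dephosphorylated, was at 0.17 on its representative, at 0.58 and -0.14 on dimmer probe sets and at -0.74 on another (1229 to 738).

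The CLK kinases, which phosphorylate the SR proteins, stayed within 2-fold, as did 8980 of the 10968 detected genes. Clk1 had the lowest ratio, going from 5842 to 3344 (1.75-fold lower) on its single probe set. Clk2 went from 1382 to 1058 (log2 ratio -0.39) and Clk3 from 1158 to 1356 (0.23). Clk4, the closest relative of Clk1, went from 681 to 792 (0.22) and on its other probe set from 694 to 650 (-0.10). Clk1 and Clk2 were lower and Clk3 and the representative of Clk4 higher, and those signs held under each scaling tried. Scaled on housekeeping genes, however, Clk3 was at 0.034 and Clk4 at 0.025, which is nearly no difference.

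Probe sets of one gene share the sample and the array, so their spread holds differences between probes and transcripts and no error between cultures. The SD between the brightest pair of measured probe sets was 0.49 (log2, per probe set) over the 3733 genes that have such a pair, and 0.58 over the 40 members that do. The pair had the same sign in 75.0% of these members and 72.0% of all such genes. The measured probe sets were below 0 throughout for 15 members (37.5%, beside 41.4%) and above 0 throughout for 8 (20.0%, beside 21.8%). Those below 0 were Hnrnpa1, Hnrnpdl, Hnrnph1, Hnrnpk, Hnrnpll, Hnrnpr, Prpf38b, Prpf6, Sf3a1, Sf3a3, Sf3b1, Sf3b2, Sf3b3, Sf3b5 and Srsf3. At least 2-fold lower on every measured probe set, with at least 2 of them, were 3 members, Hnrnpdl, Prpf38b and Sf3b3 (7.50%, beside 5.12%), and at least 2-fold higher on every one were 0 (beside 2.06%).

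In 12 of the 40 members (30.0%, beside 22.1% of all such genes) the log2 ratios of measured probe sets lay 1 or more apart. Prpf4b, a kinase of the spliceosome, had the widest range: its representative was at 0.22 (1566.5 and 1822), another probe set went from 762 to 3032.5 (1.99) and yet another from 1327 to 542 (-1.29). Hnrnpab had 4 bright probe sets between -0.03 and 0.43 and dimmer ones at -1.29 (1104 to 452), -1.01 (265 to 131) and -0.10. Hnrnpu, a nuclear scaffold hnRNP, was at -0.37 and -0.11 on its brightest probe sets (16091 to 12417 and 11756 to 10894), at 0.33 on the next and at 1.08 and 1.20 on dim ones. Hnrnpc went from 13391 to 23232 (0.79) on its representative and from 806 to 551 (-0.55) on a dimmer one. Prpf4 was at -0.20 (699 and 610.1) and 1.59 (174 to 523). No direction is given for these 5 genes. The others in this set were Hnrnpa2b1, Hnrnpdl, Prpf38b, Sf3a2, Srsf1, Srsf6 and Srsf10.

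**Figure D4:**
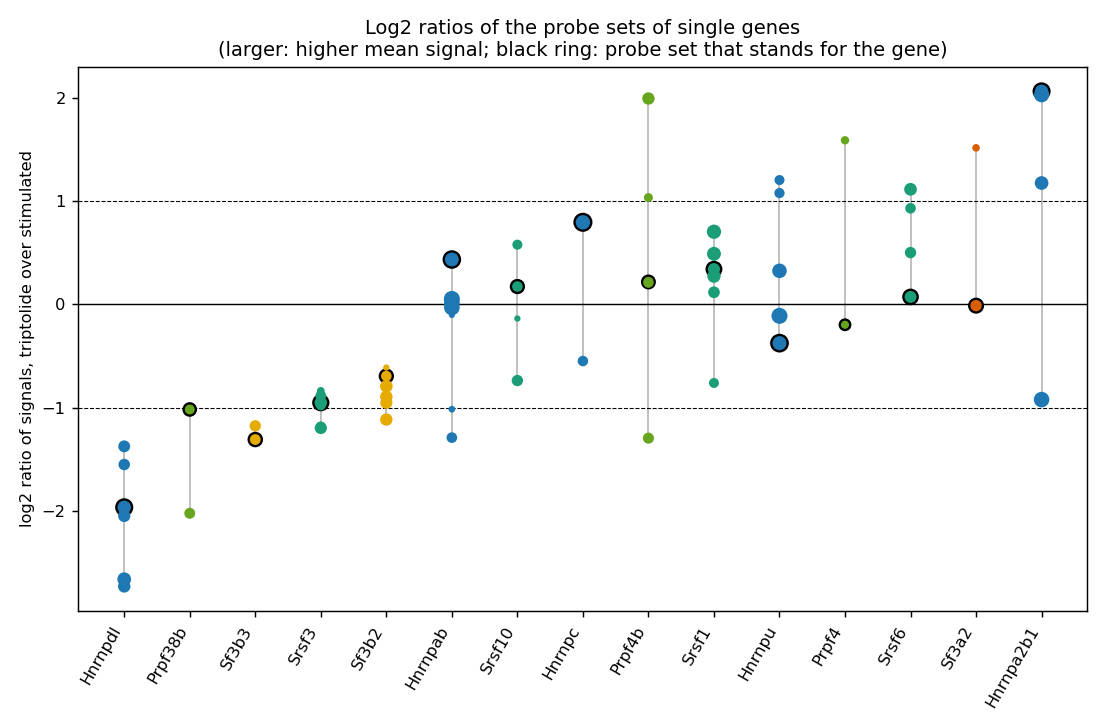
Log2 ratio of the signals, triptolide over stimulated (vertical), of each probe set measured on both arrays, for the 12 genes whose probe sets lie 1 or more apart and for Sf3b3, Srsf3 and Sf3b2, with larger points for higher mean signals and a black ring on the representative. Hnrnpdl lies between -2.73 and -1.37 throughout and Srsf3 between -1.19 and -0.84, while Hnrnpa2b1 spans -0.92 to 2.06 and Prpf4b -1.29 to 1.99.

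Of 83 other splicing genes listed by function, 74 were named on the array and all 74 were detected. At least 2-fold lower were 7 (9.46%, beside 12.5% of all detected genes) and at least 2-fold higher 2 (2.70%, beside 5.63%), with a median log2 ratio of -0.23. The lowest were Lsm4 (4546 to 1373, 3.31-fold lower) and Lsm6 (3498 to 1322, 2.65-fold lower), both proteins of the Lsm ring, Puf60, a U2AF-related factor (3417 to 1226, 2.79-fold lower, with 0.22 on its other probe set), and Ptbp2 (1062 to 430.2, 2.47-fold lower), a repressor of exons. Lsm6 ran from -1.40 to -0.44 over its 4 measured probe sets. Smndc1, Celf2 and Gemin5 were also at least 2-fold lower on their representatives. Celf2 ran from -1.06 to -0.61 and Smndc1 from -2.19 to -1.22, over 3 measured probe sets each. Ncbp2, the cap-binding subunit of the nuclear cap-binding complex, had the highest ratio (606 to 1777, 2.93-fold higher, 3 probe sets between 1.36 and 1.86). Bud31 followed (3011 to 6763, 2.25-fold higher, with 1.12 on its other probe set), and Crnkl1 was at 0.74. Son was at 0.69 on its representative and between -0.80 and 1.10 over its 7 measured probe sets, so no direction is given for it. Phf5a, a small subunit of SF3B outside the name rule, was at 0.68 (2400.1 and 3835).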

How the data were processed

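The values are linear signal intensities that the authors made with MAS5, per the submitters' processing notes, which state neither version nor settings. Trimmed by 2%, the mean over the 100 probe sets listed first was 2000.0 on each array, and over all 45037 it was 383 and 339.8, so the arrays appear to have been scaled on those 100. Of all probe sets, 34945 had 1 gene symbol in the platform annotation. The Entrez number was found in the RefSeq table of GRCm38.p6 for 34741, including all 176 of the members. With 1 array per group there is no replicate and no test, and the number of arrays limits the precision. Calculations used Python 3.11.15, pandas 2.3.3 and numpy 2.4.6 and were checked on simulated data. Named genes were the CLK genes, members beyond 2-fold, the extremes and the brightest of each family, members whose probe sets differ, members at the floor, Hnrnpll and Srsf1. Others were named after their values were seen. The members, lists and alternatives were chosen with earlier results of these data known. Protein sequences were not used here.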

Additional observations from a re-analysis of the deposited data

How the results depend on the processing

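The 10 alternatives changed the scaling (3), the floor (3, of them 1 without any), the use of a pseudocount, the probe set taken per gene (2) and the limit on dim genes. The count of members at least 2-fold lower was 9 as deposited (14.3%, beside 12.5% of all genes), 3 after centring on the median (4.76%, beside 8.96%), 3 after quantile normalization (4.76%, beside 8.49%), 4 with a pseudocount (6.35%, beside 8.94%) and 12 when scaled on housekeeping genes (19.0%, beside 17.2%). Without probe set types shared between transcripts it was 10 of 51 members (19.6%, beside 12.3%), a wider gap to all genes than in the main setting. It was 8 or 9 in the others. The count higher was 2 with the median over detected probe sets and 1 in each other alternative. Among the other splicing genes, scaling on 9 housekeeping genes gave 11 of 74 lower and 1 higher, beside 17.2% and 3.85% of all genes. Hnrnpdl and Sf3b3 stayed at least 2-fold lower in all 10. The value taken for Hnrnpa2b1 stayed at least 2-fold higher, but no alternative used its opposing probe set (-0.92) alone, so this gives the gene no direction. Sf3a1 was at -0.95 with the median over probe sets. The median of the members ranged from -0.31 (51 genes, without probe set types shared between transcripts, beside -0.16 for all genes) to 0.17 (centred). Of 344 values of named genes under the alternatives, 10 moved by more than 0.49, the SD between probe sets, and 0 changed sign from beyond 2-fold. The floor did not limit the members, since the representatives of all 63 detected members were above it on both arrays. No paired analysis was possible because each group has 1 array.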

Other observations

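Probe sets shared with another gene lay outside the comparison. For Hnrnpa1, 3 probe sets that the platform annotation also pairs with other genes, Gm10052 and Gm5643 among them, went from 10506 to 1585 (6.63-fold lower), from 8899 to 2781 (3.20-fold lower) and from 8602 to 4182 (2.06-fold lower), while the pair assigned to Hnrnpa1 alone had log2 ratios of -0.58 and -0.23. Hnrnpa3, shared with Gm6793, was lower on 3 of its 4 probe sets (9916 to 3410.0, 9684 to 3828 and 2023 to 583) and at 0.09 on the 4th (1815 and 1926). The shared probe sets of Snrpa and Snrpd1 were at -0.70 and -0.74, and that of Snrpd2 at 0.19 (15129 and 17265). For Snrpn, shared with Snurf, 1 probe set had signals of 419 and 399.7 and another of 461 and 40.5. U2af1l4, shared with Igflr1, had 1 probe set at 0.25 (192.8 and 229.8) and a dim one at 134 without triptolide and 54.9 with it, under the floor. These are values of single arrays, and which gene copy each signal comes from was not tested.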
